A study of Mus musculus with 24 samples.

Results

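The 6 libraries labelled VIP were set against the 18 labelled EXC, PV or SST as a single set, in bulk RNA-seq of neurons sorted from adult mouse cortex. A gene was described as private to VIP when its lowest VIP library lay above the highest of the other 18, or its highest VIP library lay below the lowest of them, on read counts scaled to library totals (CPM). Of 14890 genes tested, 373 lay above in this way (2.51%) and 183 lay below (1.23%). The study sorted live cells, negative for the dye DAPI and carrying GFP or tdTomato, after papain digestion, with 6 libraries in each of 4 subtypes. The labels name the subtype, sex and pool of each library: VIP has 4 female and 2 male libraries, EXC 2 and 4, PV 3 and 3, and SST 2 and 4. They state no treatment for any group, and they name neither the reporter line and driver behind each sort, nor the strain, the cortical area or the number of animals per library, so the p-values measure the spread between libraries only.

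In the mouse cortex, cells that make vasoactive intestinal peptide are GABA-releasing interneurons that arise mostly in the caudal ganglionic eminence, whereas parvalbumin and somatostatin cells arise mostly in the medial ganglionic eminence. Many of them contact other interneurons, above all somatostatin cells, and so release pyramidal cells from inhibition. They are known for fast excitation through ionotropic serotonin and nicotinic acetylcholine receptors, and some of them also make acetylcholine.

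Total counts were 4528457 to 7755954 per VIP library and 1548907 to 15978459 over all 24. Mitochondrial genes took 1.80% to 16.6% of the reads in VIP, 3.84% to 9.86% in EXC, 14.4% to 52.9% in PV and 4.41% to 7.87% in SST. VIP replicates 1 and 3 were in POOL7098 with 5 SST libraries, VIP replicates 2, 4, 5 and 6 were in POOL7099 with EXC replicate 3, and no PV library shared a pool with VIP, so that the pools of PV and VIP are linked through EXC, with 5 libraries in the pool of PV and 1 in POOL7099. Astrocyte markers summed to 1228 to 1718 CPM in VIP, with 543 to 4484 in EXC, 249 to 637 in PV and 239.7 to 384 in SST. In VIP the glutamate transporter gene Slc1a2 gave 1169.6 to 1565 CPM of it, and Gfap ran from 0 to 1.33 CPM. Aldoc was at 36.6 to 120 CPM in VIP, and at most 116 in EXC, 63.0 in PV and 31.8 in SST. Of 11 astrocyte markers tested, 3 were called higher in VIP (27.3%, with 24.2% of all genes) and 2 lower (18.2%, with 20.1%). Summed over each list, the VIP libraries held 47.3 to 114 CPM of microglial markers (other groups 39.2 to 85.9 in PV, 49.1 to 269 in EXC and 41.7 to 74.8 in SST) and 2.22 to 24.4 CPM of endothelial markers (2.58 to 19.4, 19.8 to 204 and 5.63 to 15.7). Oligodendrocyte markers summed to 64.2 to 768 CPM in VIP, with the highest value in VIP replicate 5, and to 91.97 to 3141 in EXC, 119 to 349.6 in PV and 88.7 to 239 in SST. Markers of fibroblasts and meninges summed to 16.04 to 94.6 CPM in VIP, with the highest value in VIP replicate 3. They summed to 32.5 to 136 in EXC, 5.43 to 9.68 in PV and 22.7 to 64.4 in SST. These sums include Pdgfra, which was at 13.2 to 22.8 CPM in VIP. Markers of striatal projection neurons summed to 205 to 250 CPM in VIP and 542 to 2196 in SST. They summed to 318 to 374 in EXC and 208 to 340 in PV. Markers of ependymal cells and motile cilia summed to 2.19 to 9.94 CPM in VIP and 70.5 to 188 in PV. They summed to 0.263 to 6.80 in EXC and 3.61 to 8.71 in SST. The part of these cells in the results was not tested, except where values are given beside a gene.

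The label was met by its own gene. Vip, the peptide that names the sort, had a lowest, median and highest VIP library of 1807, 1875 and 1944 CPM, against 0.118, 0.513 and 5.72 in EXC, 0, 0.792 and 1.07 in PV and 0.443, 1.61 and 2.72 in SST. All 6 VIP libraries stood far above all 18 others, whose highest value was in EXC replicate 3. The ratio of Vip reads in VIP to those in the other libraries was 1426 (95% counting interval 1226 to 1669), where the interval covers counting error only. On the authors' RPKM values, which allow levels of different genes to be compared per length, Vip ranked 14th of all genes in the VIP libraries. Of 21 genes tested on a list of VIP interneuron markers, 19 were called higher (90.5%, with 24.2% of all genes) and 0 lower (0%, with 20.1%). Of these 21, 16 lay above all 18 libraries (76.2%, with 2.51% of all genes). That list was written with earlier results of these data known. In contrast, Pvalb was at 0.129 to 0.953 CPM in VIP and 107 to 228 in PV. Of 12 PV interneuron markers tested, 8 were called lower in VIP (66.7%, with 20.1% of all genes) and 2 higher (16.7%, with 24.2%). That list summed to 616 to 821 CPM in VIP, 547 to 641 in SST and 1181.5 to 2844 in PV. Its member Btbd11 was at 223 to 278 CPM in VIP, and at most 125 in SST and 488 in PV. Slc17a7, the vesicular glutamate transporter of cortical pyramidal cells, was at 0.774 to 24.97 CPM in VIP and 175 to 816 in EXC. Less RNA of a gene per cell and fewer cells with it cannot be told apart in bulk samples.

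The number of private genes should be read against how widely VIP differed from the other sorts. Against the mean of the other 3 groups, edgeR's quasi-likelihood test called 3610 genes higher in VIP (24.2% of those tested) and 2988 lower (20.1%). Of the 373 genes above all 18 libraries, 372 were among those called, and 340 were called higher in each of the pairs VIP against EXC (18.4% of all genes called higher), PV (26.7%) and SST (16.7%). Of the 183 below, 183 were called lower in the mean contrast, and 180 in each pair (20.7%, 21.9% and 14.6% of all genes called lower). In either direction, 44.3% of all genes were called against the mean, 39.1% against EXC, 48.6% against PV and 31.3% against SST. The genes were chosen on the libraries that the test uses, so these calls describe them and add no independent support. Their median log2 fold change was 2.64 above and -2.56 below, beside 0.03 over all genes tested.

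Most of the gaps were narrow. The lowest VIP library exceeded the highest other library by a median of 1.47-fold among the 373 genes, by 2-fold or more for 116, by 4-fold or more for 47 and by 10-fold or more for 17. Among the 183 genes below, the corresponding median was 1.37-fold, with 47, 17 and 4 genes past these gaps. The rule divides genes of nearly equal values at its edge: Prkar2b, a regulatory subunit of protein kinase A, lay just inside with a lowest VIP library of 138.2 CPM and a highest other library of 137.6 CPM, whereas Fam163a lay just outside at 14.58 and 14.61 CPM. Above, the nearest other library belonged to SST for 179 genes, to EXC for 130 and to PV for 64. Below, it belonged to PV for 81 genes, to EXC for 55 and to SST for 47. Rescaled by TMM, reads of non-mitochondrial genes or DESeq2 size factors, 318, 332 and 320 of the 373 genes still lay above, and 176, 173 and 173 of the 183 still lay below.

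**Figure D1:**
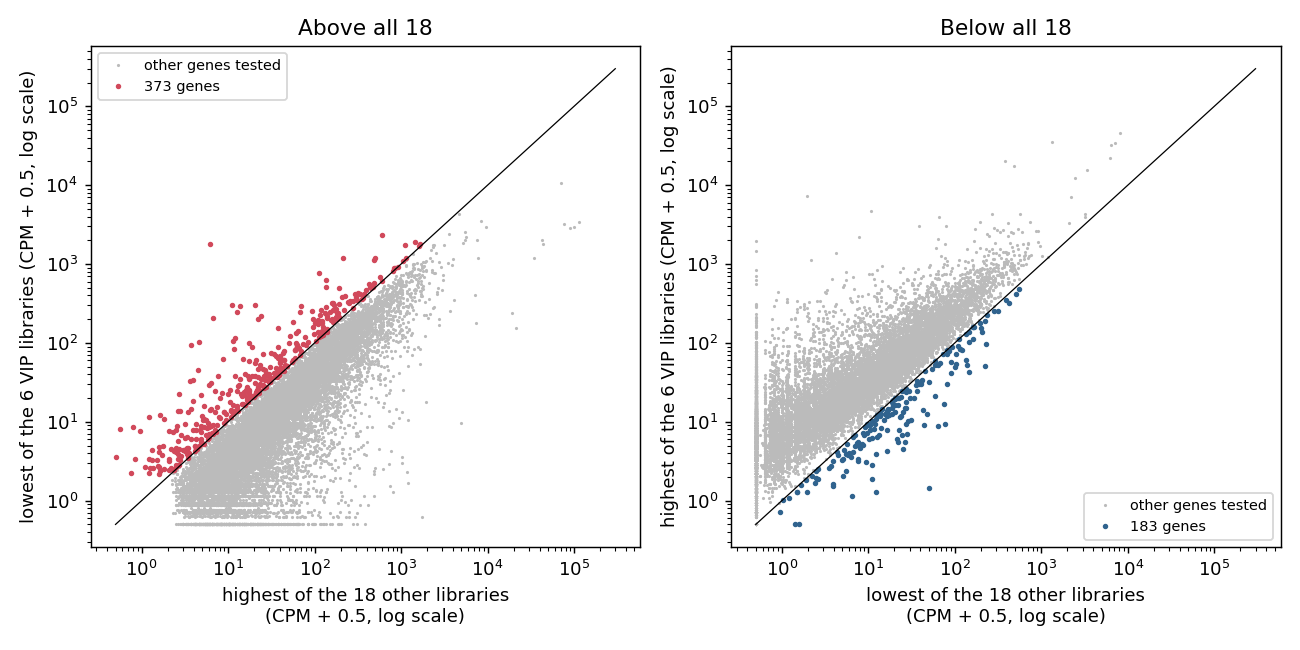
Each point is one of 14890 tested genes. The left panel sets the lowest VIP library against the highest of the 18 others and the right panel the highest VIP library against the lowest of the others, on log axes of CPM + 0.5; the line marks equal values. The 373 and 183 coloured genes lie past the line, most of them close to it, with a group of genes more than 10-fold above it on the left.

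Single libraries bore on these counts, because a gene is lost when 1 library of 18 crosses. EXC replicate 3 was the library whose removal added most: without it, 575 genes lay above and 240 below, of which 202 and 57 were new. This library was the only EXC library in POOL7099, the pool of 4 VIP libraries. In EXC replicate 3, excitatory neuron markers summed to 2834 CPM, against 5494 to 6950 in the other EXC libraries. Markers shared by GABA-releasing interneurons summed to 1121 CPM, against 431 to 854. Its dentate granule cell markers were the highest of EXC, at 3737 CPM against 2413 to 3379. The part of pool or of these differences in the counts was not tested. With pool as a covariate in the edgeR model, 295 of the 373 genes and 174 of the 183 were called, and none changed sign. The covariate reduced the calls over all genes to 1335 higher and 929 lower.

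Peptides included the widest gap above, that of Vip itself. Of 24 genes tested from the list of neuropeptide precursors, 9 were called higher (37.5%, with 24.2% of all genes) and 10 lower (41.7%, with 20.1%). Of these 24, 5 lay above all 18 other libraries (20.8%, with 2.51% of all genes) and 1 below (4.17%, with 1.23%), and the median log2 fold change was -0.45, so the median of the list lay below the 0.03 of all genes while 5 of its members were private on the higher side. Tac2, the precursor of neurokinin B, was at 304, 484 and 704 CPM (lowest, median and highest) in VIP, 0 to 0.921 in EXC, 0 to 0.215 in PV and 2.98 to 19.9 in SST. Crh, the precursor of corticotropin-releasing hormone, was at 202, 232 and 287 CPM in VIP and 8.29 to 21.6 in SST, and did not pass 1.14 CPM in EXC or PV. Every VIP library stood above every other library for both peptides, and the SST libraries were the next highest. Their changes against the mean of the other groups were 9.46 ± 0.32 and 7.43 ± 0.25 on the log2 scale (adjusted p = 2.5e-18 and 2.5e-18).

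Pthlh, which encodes parathyroid hormone-related peptide and stood on the list of PV markers, lay instead at 58.96 to 100.2 CPM in VIP against 3.87 to 17.01 in PV. Its EXC libraries were near 0, and its nearest library was PV replicate 2. Cxcl14, a chemokine used as a marker of caudal interneurons, was at 204, 299 and 448 CPM in VIP and at most 6.18 CPM elsewhere (EXC replicate 6). It changed by 6.85 ± 0.27 (adjusted p = 5.6e-17). In the opposite direction, Tac1, the precursor of substance P, was at 0 to 1.55 CPM in VIP, below every other library, against 77.5 to 193 in PV and 45.2 to 134 in SST. Its EXC libraries, at 1.71 to 4.47, were the nearest, so Tac1 was scarce in both EXC and VIP. Tac1 is also on the list of markers of striatal projection neurons, whose sum was highest in SST. The part of such cells in the SST levels of Tac1 was not tested. Pnoc, the precursor of nociceptin, overlapped on CPM and lay above after TMM scaling.

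The start sites of Vip and of Grpr, which encodes the receptor of gastrin-releasing peptide, are shown because both carry a half-site of the cAMP response element, the sequence TGACG bound by CREB proteins. Each run is the 300 bases from 250 before to 50 after the annotated start in RefSeq on GRCm38.p6, printed as the RefSeq table gives it, in lower case with the half-site in capitals.
Vip, chr10:5638968-5639267, plus strand: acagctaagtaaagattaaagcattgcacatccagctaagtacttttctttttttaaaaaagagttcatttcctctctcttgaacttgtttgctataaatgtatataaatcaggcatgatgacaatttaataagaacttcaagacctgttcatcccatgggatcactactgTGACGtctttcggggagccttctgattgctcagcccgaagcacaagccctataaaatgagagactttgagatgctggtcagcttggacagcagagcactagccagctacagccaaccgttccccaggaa
Grpr, chrX:163549687-163549986, minus strand: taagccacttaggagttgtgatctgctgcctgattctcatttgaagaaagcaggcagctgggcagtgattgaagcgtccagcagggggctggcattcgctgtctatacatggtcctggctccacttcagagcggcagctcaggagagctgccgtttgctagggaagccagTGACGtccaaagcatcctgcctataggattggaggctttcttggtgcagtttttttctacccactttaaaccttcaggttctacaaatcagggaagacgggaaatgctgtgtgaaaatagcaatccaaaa
The half-site begins 79 bases before the start in Vip and 80 before it in Grpr. In the RefSeq table the 50 bases after the start, read as printed, matched a GENCODE transcript of the same gene for 8962 of 12500 windows on the minus strand and their reverse complement for 0. Grpr lies on that strand, and its own window matched in neither reading, so its orientation rests on the other windows. Searched on both strands as TGACG or CGTCA, the half-site was present at 73 of the 265 private genes above with a promoter entry (27.5%) and at 43 of 132 below (32.6%), against 3802 of 10906 genes tested (34.9%). Of the other genes looked at, Tac2, Cxcl14 and Slc5a7 had no match, Chat and Slc18a3 had one on the reverse strand, and one of the pair of windows of Chrna5 had one. A match is a stretch of letters and does not show a bound site.

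Of the 24 lists by function, that of acetylcholine synthesis and transport had the largest share of private genes. Of 5 genes tested from the list of acetylcholine synthesis and transport, 4 were called higher (80%, with 24.2% of all genes) and 0 lower (0%, with 20.1%). Of these 5, 3 lay above all 18 other libraries (60%, with 2.51% of all genes) and 0 below (0%, with 1.23%), and the median log2 fold change was 8.53. Slc18a3, the vesicular acetylcholine transporter, was at 7.61, 17.9 and 24.5 CPM in VIP, with 616 reads there and 1 read in all 18 others together. Chat, the enzyme that makes acetylcholine, was at 11.9, 16.2 and 24.4 CPM in VIP, with 596 reads there and 6 in the others. Both were low in VIP by level but nearly without reads elsewhere. Slc5a7, the high-affinity choline transporter, was more abundant, at 101, 156 and 214 CPM in VIP, and did not pass 4.13 CPM elsewhere (SST replicate 4). It changed by 8.53 ± 0.31 on the log2 scale (adjusted p = 8.6e-18). With pool as a covariate, the calls of Chat and Slc18a3 were lost (adjusted p = 1 for each), in a fit that gave no usable standard error for either, and Slc5a7 stood at 6.97 (adjusted p = 0.0086). Slc18a3 lies within the bounds of Chat in the genome (RefSeq, chromosome 14). No source used here gives the strand setting of the counts, so reads of the pair may not be fully separate.

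**Figure D2:**
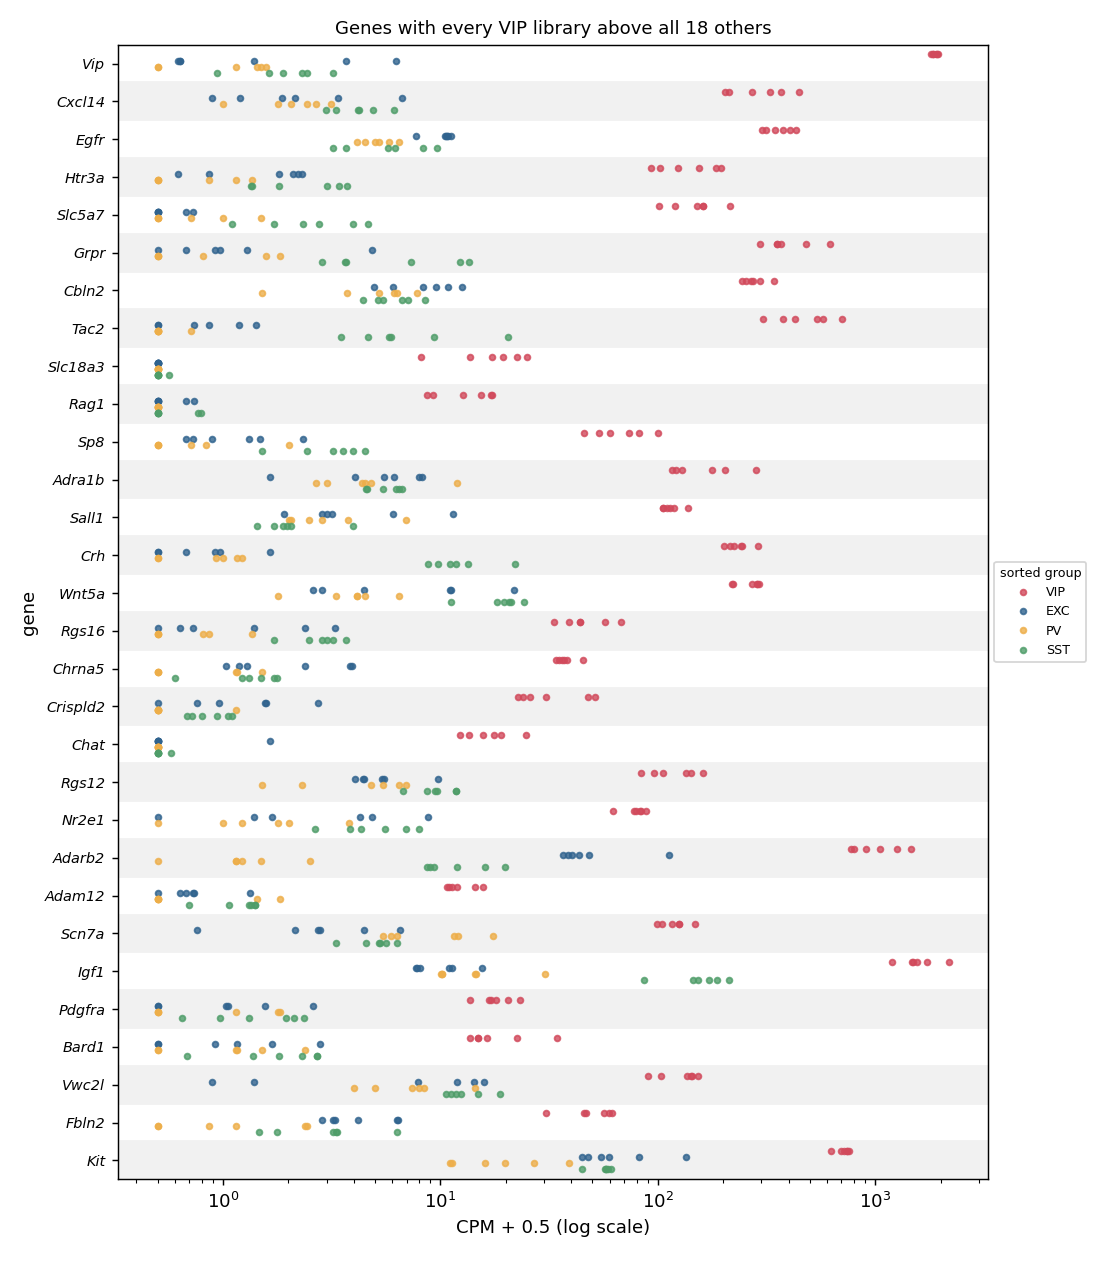
Each point is 1 library, on a log axis of CPM + 0.5, for the 30 named genes with the widest gap above, coloured by sorted group with 6 libraries each. All 6 VIP points lie to the right of the 18 others in each row, and SST points are often the nearest, as for Tac2, Crh and Igf1.

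Receptors for peptides and for modulatory transmitters supplied a further set, in both directions. Of 32 genes tested from the list of neuropeptide receptors, 13 were called higher (40.6%, with 24.2% of all genes) and 13 lower (40.6%, with 20.1%). Of these 32, 6 lay above all 18 other libraries (18.8%, with 2.51% of all genes) and 3 below (9.38%, with 1.23%), and the median log2 fold change was -0.28. Grpr, the receptor of gastrin-releasing peptide, was at 296, 362 and 623 CPM in VIP and at most 13.1 CPM elsewhere (SST replicate 6). No VIP library came near the range of the others, in which SST held the highest values. Hcrtr2, an orexin receptor, was at 34.9 to 124 CPM against at most 13.1 CPM elsewhere (SST replicate 2), a log2 fold change of 4.19 ± 0.31 (adjusted p = 2.1e-11). Oprd1, the delta opioid receptor, was the reverse case: 4 of the 6 VIP libraries had no read and the highest stood at 0.783 CPM, against 11.7 to 19.2 in EXC, 35.8 to 68.03 in SST and 66.9 to 159 in PV. Cckbr, a receptor of cholecystokinin and gastrin, was at 0 to 1.57 CPM in VIP against at least 4.58 CPM elsewhere (EXC replicate 3). The ratio of reads in VIP to those in the other libraries was 0.00449 (95% counting interval 0.00194 to 0.00885) for Oprd1 and 0.0241 (95% counting interval 0.0137 to 0.0392) for Cckbr.

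Among receptors for serotonin, acetylcholine and noradrenaline, those that were private were mostly higher in VIP. Of 32 genes tested from the list of serotonin, acetylcholine and adrenergic receptors, 14 were called higher (43.8%, with 24.2% of all genes) and 10 lower (31.2%, with 20.1%). Of these 32, 6 lay above all 18 other libraries (18.8%, with 2.51% of all genes) and 1 below (3.12%, with 1.23%), and the median log2 fold change was 0.16. Htr3a, the ionotropic serotonin receptor subunit, was at 92.98, 139 and 195 CPM in VIP and at most 3.22 CPM elsewhere (SST replicate 2). Adra1b, an alpha-1 adrenergic receptor, was at 116, 153 and 282 CPM in VIP and at most 11.4 CPM elsewhere (PV replicate 5). For each of these receptors the VIP libraries formed a separate range, with log2 fold changes of 7.38 ± 0.29 (adjusted p = 6.4e-17) and 4.87 ± 0.23 (adjusted p = 3.6e-15). Chrna5, a nicotinic receptor subunit, was tightly grouped at 33.4, 36.2 and 45.05 CPM in VIP, and at most 3.42 CPM elsewhere (EXC replicate 5). Its neighbour Chrna3, also a nicotinic subunit, was at 8.39 to 12.3 CPM in VIP and at most 2.07 CPM elsewhere (SST replicate 5). The Chrna5 and Chrna3 genes overlap in RefSeq, so the counting of either may touch the other. Cnr1, the cannabinoid receptor that dampens transmitter release, was among the most abundant of the private genes, at 2340.1, 3142 and 3919.9 CPM in VIP against 429 to 605 in SST, 93.1 to 168 in EXC and 65.6 to 134 in PV. It was 1 of 12 tested genes of cannabinoid and lipid signalling to lie above all 18 (8.33%, with 2.51% of all genes).

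Regulators of the caudal lineage that were private lay above the other libraries. Of 12 genes tested from the list of caudal ganglionic eminence lineage regulators, 10 were called higher (83.3%, with 24.2% of all genes) and 0 lower (0%, with 20.1%). Of these 12, 5 lay above all 18 other libraries (41.7%, with 2.51% of all genes) and 0 below (0%, with 1.23%), and the median log2 fold change was 3.03. Sp8, a zinc-finger factor of that lineage, was at 45.3, 66.7 and 99.3 CPM in VIP and at most 3.98 CPM elsewhere (SST replicate 5). Adarb2, an RNA-binding protein of the adenosine deaminase family that marks caudal interneurons, was at 774, 984 and 1467 CPM in VIP, 36.3 to 112 in EXC, 8.14 to 19.4 in SST and 0 to 2.01 in PV. The EXC libraries, not the SST ones, were thus the nearest for Adarb2, which changed by 6.999 ± 0.23 (adjusted p = 1.7e-18). Nr2e1, a nuclear receptor known from neural stem cells, ran 61.5 to 87.8 CPM in VIP and no higher than 8.29 CPM elsewhere (EXC replicate 6). Npas3, a bHLH-PAS factor, was at 133 to 176 CPM in VIP against at most 60.3 CPM elsewhere (SST replicate 2), a log2 fold change of 2.78 ± 0.38 (adjusted p = 1.6e-06). Outside that list, Sall1, a zinc-finger factor, was at 105, 112 and 137 CPM in VIP and at most 10.9 CPM elsewhere (EXC replicate 6), and its 6 VIP libraries were close together.

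Of 12 markers shared by GABA-releasing interneurons, 11 were called higher (91.7%, with 24.2% of all genes). Of these 12, 3 lay above all 18 libraries (25%, with 2.51% of all genes). Dlx1 and Dlx2, homeobox factors of interneuron precursors, were at 317 to 509 CPM and 36.2 to 61.8 CPM in VIP. Their highest values were 160.2 CPM elsewhere (SST replicate 6) and 21.7 CPM elsewhere (SST replicate 6), so the ranges of VIP and SST did not touch. The long noncoding RNA Dlx6os1 was at 292, 549 and 785 CPM in VIP and at most 69.2 CPM elsewhere (SST replicate 6). In contrast, Gad1 and Gad2, the enzymes that make GABA, overlapped: Gad2 was at 2570.0 to 3414 CPM in VIP but 3984 to 5497 in SST. Gad2 was called higher against the mean of the other groups (0.97 ± 0.17, adjusted p = 3.9e-05), a mean that includes EXC at 194 to 647, and it was not called with pool as a covariate (adjusted p = 0.53).

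Of 11 medial lineage regulators tested, 3 were called higher (27.3%, with 24.2% of all genes) and 6 lower (54.5%, with 20.1%). Of these 11, 2 lay below all 18 libraries (18.2%, with 1.23% of all genes) and 1 above (9.09%, with 2.51%). Satb1, a chromatin organiser of medial interneurons, was at 51.1 to 78.2 CPM in VIP, 85.02 to 118 in EXC, 274 to 523 in PV and 865 to 1204 in SST. Etv1, an ETS factor, was at 12.1 to 20.02 CPM in VIP and at least 23.3 CPM elsewhere (SST replicate 2). Both ranges ended just below the nearest library, and the changes were -2.52 ± 0.13 and -2.16 ± 0.23 (adjusted p = 2.7e-14 and 1.7e-08). Zeb2 of the same list lay above on CPM, at 1187 to 1568 CPM against at most 1146 CPM elsewhere (EXC replicate 6), and overlapped after TMM scaling.

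Growth factors and their receptors were private in both directions. Of 51 genes tested from the list of growth factor ligands, receptors and binding proteins, 20 were called higher (39.2%, with 24.2% of all genes) and 15 lower (29.4%, with 20.1%). Of these 51, 6 lay above all 18 other libraries (11.8%, with 2.51% of all genes) and 2 below (3.92%, with 1.23%), and the median log2 fold change was 0.12. Egfr, the epidermal growth factor receptor, was at 303, 363 and 432 CPM in VIP and at most 10.7 CPM elsewhere (EXC replicate 1). It changed by 5.68 ± 0.17 (adjusted p = 2.2e-19), the smallest adjusted p of the 30 named genes above. Igf1, insulin-like growth factor 1, was at 1191, 1527 and 2178 CPM in VIP, 85.9 to 212 in SST and no more than 29.8 CPM in EXC and PV. Kit, the receptor of stem cell factor, was at 623, 730.5 and 756 CPM in VIP and at most 134 CPM elsewhere (EXC replicate 5), with VIP libraries that differed little among themselves. Fgf1, fibroblast growth factor 1, was at 87.3 to 156 CPM in VIP against at most 36.97 CPM elsewhere (EXC replicate 6). On the lower side, Gfra2, the co-receptor of neurturin, was at 2.96, 4.54 and 6.40 CPM in VIP and at least 27.8 CPM elsewhere (PV replicate 6), a log2 fold change of -4.19 ± 0.27 (adjusted p = 2.1e-12).

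Pdgfra, best known as the receptor that marks oligodendrocyte precursors and also some fibroblasts, was at 13.2, 17.04 and 22.8 CPM in VIP and at most 2.10 CPM elsewhere (EXC replicate 6). The other 5 genes of the oligodendrocyte precursor list (Cspg4, Olig1, Olig2, Sox10 and Gpr17) did not pass 1.57 CPM in any VIP library. Pdgfra, which is also on the list of fibroblast and meningeal markers, was in replicates 1 to 6 at 16.3, 17.4, 22.8, 13.2, 20.02 and 16.6 CPM, while that list summed to 80.1, 26.7, 94.6, 16.04, 24.2 and 18.3 CPM in the same order. The sums were thus highest in VIP replicates 1 and 3, and the part of such cells in the Pdgfra level was not tested.

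Wnt signalling held 7 private genes on CPM, all of them on the higher side, and after TMM scaling 6 above and 1 below (Rspo2 then overlapped, and Rspo3 lay below). Of 27 genes tested from the list of Wnt signalling, 11 were called higher (40.7%, with 24.2% of all genes) and 8 lower (29.6%, with 20.1%). Of these 27, 7 lay above all 18 other libraries (25.9%, with 2.51% of all genes) and 0 below (0%, with 1.23%), and the median log2 fold change was -0.31. Its median thus lay below that of all genes, although 7 of its members lay above all 18. Wnt5a, a ligand of mostly beta-catenin-independent signalling, was at 219.6, 277 and 290.4 CPM in VIP and at most 23.8 CPM elsewhere (SST replicate 2). The ligand Wnt5b was at 8.88 to 24 CPM and at most 2.65 CPM elsewhere (PV replicate 3). Rspo1, a secreted enhancer of Wnt signalling, was low but separate at 4.44 to 10.4 CPM against at most 1.25 CPM elsewhere (EXC replicate 2). The receptor Fzd1 was at 39.5 to 68.3 CPM against at most 15.2 CPM elsewhere (SST replicate 6). Ligands, an enhancer and a receptor were thus all among the higher genes, with log2 fold changes of 4.91, 4.99, 4.46 and 2.90 (adjusted p at most 2.8e-08).

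Genes of the synapse and the cell surface moved in both directions. Of 32 genes tested from the list of synaptic organisers, 11 were called higher (34.4%, with 24.2% of all genes) and 12 lower (37.5%, with 20.1%). Of these 32, 5 lay above all 18 other libraries (15.6%, with 2.51% of all genes) and 1 below (3.12%, with 1.23%), and the median log2 fold change was 0.13. Cbln2, a secreted organiser that links neurexins to postsynaptic receptors, was at 244, 271 and 342 CPM in VIP and at most 12.1 CPM elsewhere (EXC replicate 3). Ptprd, a presynaptic receptor phosphatase, was at 1208, 1887 and 2748 CPM and at most 499 CPM elsewhere (PV replicate 5), and Slitrk2, a postsynaptic partner of such phosphatases, at 335 to 730.1 CPM and at most 280.5 CPM elsewhere (EXC replicate 3). Nptx1, a neuronal pentraxin that gathers AMPA receptors, lay below at 1.16, 3.99 and 12.2 CPM in VIP, 15.1 to 33.8 in PV, 55.8 to 93.9 in SST and 505 to 1215 in EXC. The PV libraries were the nearest to VIP for Nptx1, and the change against the mean was -4.68 ± 0.38 (adjusted p = 1.7e-10). After TMM scaling, 3 genes of this list lay above, not 5.

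Adhesion molecules of the cadherin family were private on both sides. Of 28 genes tested from the list of cadherins and protocadherins outside the clusters, 13 were called higher (46.4%, with 24.2% of all genes) and 8 lower (28.6%, with 20.1%). Of these 28, 6 lay above all 18 other libraries (21.4%, with 2.51% of all genes) and 2 below (7.14%, with 1.23%), and the median log2 fold change was 0.39. Cdh20 was at 52.4 to 67.4 CPM against at most 22.8 CPM elsewhere (PV replicate 5), Cdh6 at 78.2 to 139 CPM against 43.8 CPM elsewhere (EXC replicate 6), and Pcdh15 at 67.3 to 252 CPM against 35.4 CPM elsewhere (SST replicate 3). Among these 3 genes the VIP libraries were closest together for Cdh20 and furthest apart for Pcdh15.

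Axon guidance genes included some of the widest gaps on the lower side. Of 39 genes tested from the list of axon guidance, 11 were called higher (28.2%, with 24.2% of all genes) and 21 lower (53.8%, with 20.1%). Of these 39, 3 lay above all 18 other libraries (7.69%, with 2.51% of all genes) and 5 below (12.8%, with 1.23%), and the median log2 fold change was -0.36. Sema3c, a secreted semaphorin, lay above, at 152, 344 and 365 CPM in VIP and at most 37.7 CPM elsewhere (SST replicate 4), a log2 fold change of 5.17 ± 0.20 (adjusted p = 4.4e-17). Slit2, a secreted repellent for Robo receptors, was at 1.30, 2.42 and 4.97 CPM in VIP and at least 26.3 CPM elsewhere (EXC replicate 3). Ntng1, a membrane-anchored netrin relative, was at 3.31, 4.60 and 5.13 CPM and at least 21.6 CPM elsewhere (PV replicate 1), and Unc5d, a netrin receptor family member, at 9.13 to 12.04 CPM and at least 47.6 CPM elsewhere (EXC replicate 3). All 3 were lower in each VIP library than in any other, with changes of -5.11 ± 0.36, -3.59 ± 0.14 and -3.55 ± 0.17 on the log2 scale (adjusted p = 1.4e-11, 1e-16 and 6.6e-15).

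Matrix genes were private in both directions. Of 34 genes tested from the list of extracellular matrix and proteases, 11 were called higher (32.4%, with 24.2% of all genes) and 14 lower (41.2%, with 20.1%). Of these 34, 4 lay above all 18 other libraries (11.8%, with 2.51% of all genes) and 5 below (14.7%, with 1.23%), and the median log2 fold change was -0.36. Lama3, a laminin chain, was at 24 to 56.6 CPM in VIP against at most 6.56 CPM elsewhere (PV replicate 4), and the collagen gene Col24a1 at 15.1 to 41.7 CPM against 6.88 CPM elsewhere (PV replicate 5). Neither overlapped any of the other libraries. On the lower side were Tnr, Col25a1, Mme, Adamts1 and Spon1. Tnr, tenascin R of perineuronal nets, was at 119 to 139 CPM in VIP and at least 205 CPM elsewhere (PV replicate 6), and Mme, the peptidase neprilysin, at 2.21 to 8.51 CPM and at least 9.996 CPM elsewhere (EXC replicate 5). The collagen gene Col25a1 was at 1.77 to 24.1 CPM in VIP and at least 29.1 CPM elsewhere (PV replicate 6), a narrow gap. Outside the list, Fbln2, a fibulin of the matrix, and Adam12, a membrane metalloprotease, were at 30.3 to 61.4 CPM and 10.3 to 15.2 CPM in VIP, and no higher than 5.91 CPM elsewhere (EXC replicate 2) and 1.32 CPM elsewhere (PV replicate 3).

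Potassium channels as a list were called lower more than higher, and a few members were private in each direction. Of 44 genes tested from the list of potassium channels and modifiers, 10 were called higher (22.7%, with 24.2% of all genes) and 26 lower (59.1%, with 20.1%). Of these 44, 4 lay above all 18 other libraries (9.09%, with 2.51% of all genes) and 3 below (6.82%, with 1.23%), and the median log2 fold change was -0.61. Kcnt2, a sodium-activated potassium channel, was at 380.5, 716 and 1128 CPM in VIP, and at most 205 CPM elsewhere (EXC replicate 3). Kcnn2, a small-conductance calcium-activated channel, was at 46.04 to 87.9 CPM and at most 24.9 CPM elsewhere (EXC replicate 4). Kcnj4, an inward rectifier, lay below at 1.16 to 2.87 CPM against at least 7.12 CPM elsewhere (SST replicate 4). The first pair rose (4.30 ± 0.23 and 2.23 ± 0.17, adjusted p = 3.6e-14 and 8.5e-11) and Kcnj4 fell (-3.21 ± 0.31, adjusted p = 3.2e-09). After TMM scaling, 7 potassium channel genes lay below, not 3. Scn7a, a member of the sodium channel family, was at 98.4, 120.2 and 148 CPM in VIP and at most 16.9 CPM elsewhere (PV replicate 4). Cacng5, an auxiliary subunit of AMPA receptors, was at 81.4 to 159.9 CPM in VIP and at most 59.6 CPM elsewhere (SST replicate 1).

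Receptors of the fast transmitters were among the lower private genes. Of 23 genes tested from the list of ionotropic and metabotropic glutamate receptors, 10 were called higher (43.5%, with 24.2% of all genes) and 6 lower (26.1%, with 20.1%). Of these 23, 2 lay above all 18 other libraries (8.7%, with 2.51% of all genes) and 3 below (13%, with 1.23%), and the median log2 fold change was 0.21. The AMPA receptor subunit Gria3 was at 32.5, 76.1 and 96.99 CPM in VIP and at least 229 CPM elsewhere (PV replicate 6), and the NMDA receptor subunit Grin2a at 102, 111 and 112 CPM and at least 160.1 CPM elsewhere (PV replicate 6). Both fell, with changes of -2.89 ± 0.22 and -1.85 ± 0.13 (adjusted p = 3e-11 and 6.1e-12). Grm8, a presynaptic metabotropic receptor, lay above at 44.7 to 77.4 CPM, against at most 26.1 CPM elsewhere (EXC replicate 3). After TMM scaling, 5 glutamate receptor genes lay below, not 3. Of 15 genes of GABA-A and GABA-B receptors, 4 were called higher (26.7%, with 24.2% of all genes) and 7 lower (46.7%, with 20.1%). Of these 15, 0 lay above (0%, with 2.51% of all genes) and 2 below (13.3%, with 1.23%). Gabrd, the delta subunit of extrasynaptic GABA-A receptors, was at 0.221, 2.51 and 3.87 CPM in VIP, and at least 4.80 CPM elsewhere (EXC replicate 3). Gabbr2 lay below on CPM only, and overlapped after TMM scaling.

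Calcium-binding proteins and regulators of G proteins completed the lists with several members. Calb2, calretinin, was at 54.5, 110.0 and 129.6 CPM in VIP and at most 19.8 CPM elsewhere (SST replicate 2), whereas Calb1, calbindin, was at 2.06, 3.02 and 8.39 CPM in VIP against 63.7 to 143 in PV, 110.0 to 196 in EXC and 289.9 to 502 in SST. These relatives were thus private in opposite directions, with log2 fold changes of 5.69 ± 0.31 and -5.65 ± 0.29 (adjusted p = 4.6e-14 and 1.8e-14). Of 42 genes tested from the list of cyclic nucleotide and G protein regulators, 14 were called higher (33.3%, with 24.2% of all genes) and 12 lower (28.6%, with 20.1%). Of these 42, 6 lay above all 18 other libraries (14.3%, with 2.51% of all genes) and 1 below (2.38%, with 1.23%), and the median log2 fold change was 0.03. Rgs12, Rgs16 and Rgs10, which speed the switching off of G proteins, were at 82.8 to 161 CPM, 32.8 to 66.9 CPM and 89.6 to 188 CPM in VIP, and no higher than 11.3 CPM elsewhere (SST replicate 2), 3.17 CPM elsewhere (SST replicate 1) and 61.7 CPM elsewhere (SST replicate 2). Rgs4, of the same family, was the exception, at 15.8 to 31.3 CPM in VIP and at least 50.3 CPM elsewhere (EXC replicate 3).

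Several of the widest gaps belonged to genes outside the lists by function. Rag1, known as the recombinase of lymphocyte receptor genes, was at 8.17, 13.5 and 16.8 CPM in VIP, with 491 reads there and 11 in the 18 others. Bard1, the partner of BRCA1 in DNA repair, was at 13.2 to 33.8 CPM in VIP and at most 2.29 CPM elsewhere (EXC replicate 3). Crispld2, a secreted protein of the VIP marker list, was at 22.2, 27.6 and 51.01 CPM and at most 2.24 CPM elsewhere (EXC replicate 6), and Vwc2l, a secreted protein with von Willebrand factor C domains, at 89.5 to 152 CPM and at most 18.2 CPM elsewhere (SST replicate 5). For each of these genes all 6 VIP libraries were above the other 18. Their log2 fold changes were 7.62, 4.25, 6.18 and 3.70, with adjusted p of 4e-10, 1.2e-08, 5.9e-13 and 8.8e-10.

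Among the 15 named genes below, Iqgap2 had the widest gap. It encodes a scaffold that binds Rac and Cdc42, and it was at 0.391, 0.704 and 0.953 CPM in VIP, 262, 292 and 333 in EXC, 65.9, 72.3 and 102 in PV and 49.8, 55.4 and 67.1 in SST. All VIP libraries lay far below the lowest of the others, SST replicate 2, and the ratio of reads in VIP to those in the others was 0.00509 (95% counting interval 0.00329 to 0.00752). Rapgef5, an exchange factor for Rap, was at 2.06, 5.83 and 8.77 CPM in VIP and at least 77.04 CPM elsewhere (SST replicate 6), and Rerg, a Ras-like GTPase, at 0.261 to 1.40 CPM and at least 10.4 CPM elsewhere (EXC replicate 5). Both were thus far from overlap, with changes of -4.79 ± 0.23 and -5.64 ± 0.26 (adjusted p = 6.6e-15 and 2.2e-15).

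The remaining genes of this set came from several classes. Itpr1, the receptor that releases calcium from internal stores, was at 9.30, 19.8 and 51.2 CPM in VIP and at least 222 CPM elsewhere (SST replicate 4). Myo5b, a motor of recycling vesicles, was at 1.55 to 4.04 CPM and at least 24.9 CPM elsewhere (SST replicate 2), and Wipf3, a partner of actin regulators, at 2.54 to 16.2 CPM and at least 74.9 CPM elsewhere (PV replicate 6). The VIP libraries of Itpr1 and Wipf3 were themselves spread, the former from VIP replicate 1 to VIP replicate 2. Fras1, a matrix protein of basement membranes, and Lpl, lipoprotein lipase, were at 0.211 to 0.645 CPM and 0.516 to 2.32 CPM in VIP, against at least 5.96 CPM elsewhere (PV replicate 3) and 10.6 CPM elsewhere (EXC replicate 2). Mpped1 was at 2.43 to 8.58 CPM and Iqck at 1.27 to 3.73 CPM, against at least 43.01 CPM elsewhere (EXC replicate 3) and 15.98 CPM elsewhere (SST replicate 3). The changes of these 7 genes ran from -5.42 (Wipf3) to -3.84 (Lpl), with adjusted p of at most 1.7e-10.

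**Figure D3:**
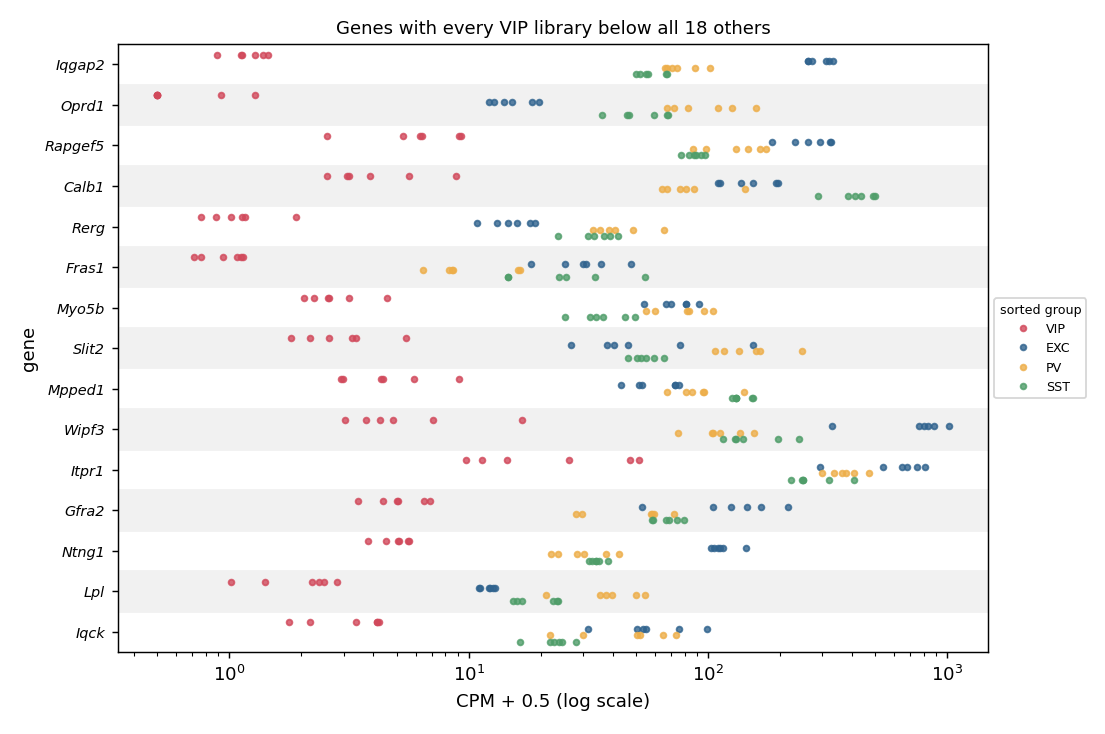
Each point is 1 library, on a log axis of CPM + 0.5, for the 15 named genes with the widest gap below, coloured by sorted group with 6 libraries each. The VIP points lie to the left of the 18 others in every row, and the group nearest to them differs between genes: EXC for Oprd1, Rerg and Lpl, PV for Fras1, Gfra2 and Ntng1, and SST for Iqgap2 and Rapgef5.

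Other lists held no private gene or few. None of 32 nuclear genes of oxidative phosphorylation and none of 21 cytosolic ribosomal protein genes lay outside the range of the other 18 libraries. Over all genes 2.51% lay above and 1.23% below, so lists of this size would hold few private genes at those shares. Of the oxidative phosphorylation genes, 24 were called lower in VIP (75%, with 20.1% of all genes), with a median log2 fold change of -0.70. That count fell to 0, with 1 called higher, once pool was a covariate, and PV, with 14.4% to 52.9% of its reads on mitochondrial genes, shares no pool with VIP; the part of either in the result was not tested. Of 38 genes of synaptotagmins and release machinery, 1 lay below (2.63%, with 1.23% of all genes): Syt7, a calcium sensor of slow release, at 52.9 to 81.6 CPM in VIP against at least 120.3 CPM elsewhere (SST replicate 2). Of 25 immediate early and dissociation genes, 1 lay below (4%, with 1.23% of all genes): Jun, at 5.34 to 15.7 CPM against at least 19.6 CPM elsewhere (PV replicate 1). Among markers of excitatory neurons, 13 of 15 were called lower (86.7%, with 20.1% of all genes). Of these 15, 2 lay below all 18 (13.3%, with 1.23% of all genes): Nptx1 and Slc17a6. Slc17a6, a vesicular glutamate transporter, was at 0 to 1.14 CPM in VIP and at least 3.43 CPM elsewhere (EXC replicate 3).

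The counts of private genes use no model, but the calls within several lists moved when pool was a covariate, mostly to fewer. Over all 14890 genes, that covariate left 1335 called higher and 929 lower. The calls higher and lower then came to 2 and 0 for acetylcholine genes, 8 and 8 for peptide receptors, 6 and 5 for glutamate receptors and 8 and 15 for potassium channels. They came to 11 and 5 for synaptic organisers, 11 and 3 for cadherins, 8 and 9 for axon guidance and 8 and 3 for Wnt signalling. For growth factors they came to 14 and 10, for matrix genes to 6 and 8, and for G protein regulators to 16 and 6. The list of sodium, calcium and chloride channels then had 14 and 5 of 39 genes. Without the covariate it had 16 and 15 (41.0% and 38.5%, with 24.2% and 20.1% of all genes). That of release machinery had 9 and 7 of 38 genes, and 10 and 19 without the covariate (26.3% and 50%). Among the caudal regulators the counts stayed at 10 and 0, and among VIP markers they were 17 and 0.

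**Figure D4:**
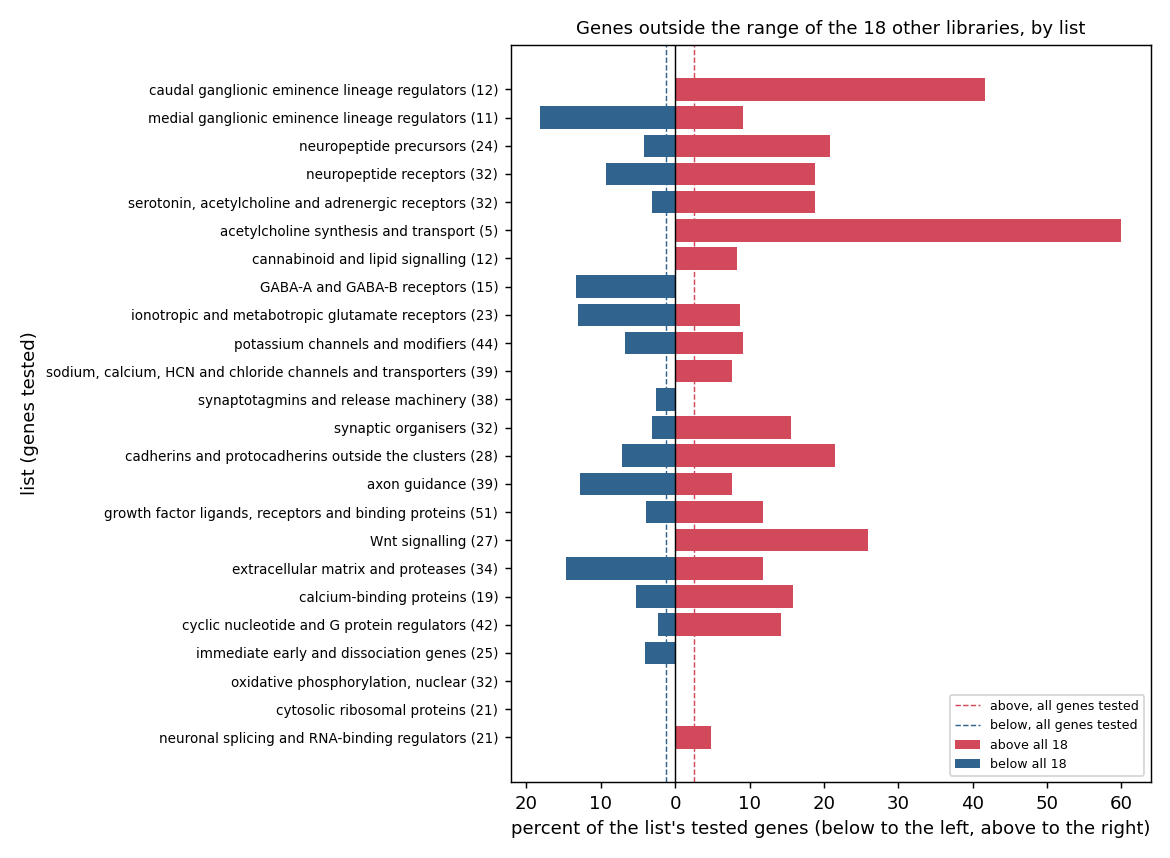
Bars give the percent of each list's tested genes that lay above (right) or below (left) all 18 other libraries, with the number tested in parentheses; dashed lines mark the percent over all genes, 2.51% above and 1.23% below. Acetylcholine synthesis (3 of 5) and caudal lineage regulators (5 of 12) reach furthest to the right, and oxidative phosphorylation and ribosomal genes have no bar.

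Under the rule, adding libraries to the comparison can only remove private genes, so including EXC could not enlarge the set. The loss from adding another group in its place is not given here. Against the 12 PV and SST libraries alone, 1052 genes lay above (7.07%) and 428 below (2.87%); adding the 6 EXC libraries removed 64.5% and 57.2% of them. Among the genes removed from the higher side, 123 had all 6 EXC libraries above every PV and SST library too. Prox1, a homeobox factor of caudal interneurons that is also known from dentate granule cells, was at 1122, 1220.0 and 1365 CPM in VIP, 828, 1008 and 1128 in EXC, 3.75, 6.45 and 10.9 in PV and 5.22, 11 and 14.6 in SST. Its lowest VIP library fell just short of its highest EXC library on CPM and lay above it after TMM scaling. Nfib and Nfix were of the same kind, with EXC at higher medians than VIP; they were chosen after their values were seen. Nfib, a nuclear factor I protein, was at 192.7 to 279.8 CPM in VIP and 429.7 to 556.2 in EXC, against at most 40.1 in PV and 43.9 in SST. For its relative Nfix, VIP was at 239.0 to 464.6 CPM and EXC at 321.2 to 528.7. Of 10 tested markers of dentate granule cells, excitatory neurons of the hippocampus, 7 were called lower in VIP (70%, with 20.1% of all genes). Of the same 10, 1 was called higher (10%, with 24.2% of all genes). Their sum was 2413 to 3737 CPM in EXC and 149 to 285 in VIP. The part of such cells in the EXC levels of Prox1 was not tested.

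The 6 VIP libraries were not uniform for their private genes. Among the 314 genes above with a lowest VIP library of at least 5 CPM, the highest VIP library exceeded the lowest by a median of 1.74-fold, by at most 1.5-fold for 95 genes and by at least 3-fold for 31. Vip itself was among the most even, in replicates 1 to 6 at 1923, 1944, 1904, 1843, 1807 and 1846 CPM. Tac2 was at 304, 704, 376, 576, 538 and 429 CPM and Htr3a at 92.98, 155, 102, 185, 195 and 123 CPM, both higher in replicates 2, 4 and 5 than in replicates 1, 3 and 6. Adarb2 was at 1467, 774, 1058, 795, 910.1 and 1265 CPM and Kcnt2 at 1128, 380.5, 949.9, 482, 434 and 1011 CPM, with replicates 1, 3 and 6 at the higher end for both. The mitochondrial share in the same order was 1.80%, 14.6%, 5.83%, 14.2%, 16.6% and 4.81%, so that replicates 2, 4 and 5 were also the highest there; its part in these levels was not tested. The 26 long noncoding RNAs among the 314 genes had a median spread of 3.19-fold against 1.71-fold for the 266 protein-coding genes, and 16 of the 26 were highest in VIP replicate 1.

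Pool, the batch label in which VIP libraries differ, was tested within VIP with 2 libraries in POOL7098 and 4 in POOL7099. The edgeR test called 69 of 14890 genes (0.463%), 68 of them lower in POOL7099, and 789 genes had an unadjusted p under 0.05. None of the 373 genes above or the 183 below was among those called, which with 2 libraries against 4 does not show that they were equal.

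**Figure D5:**
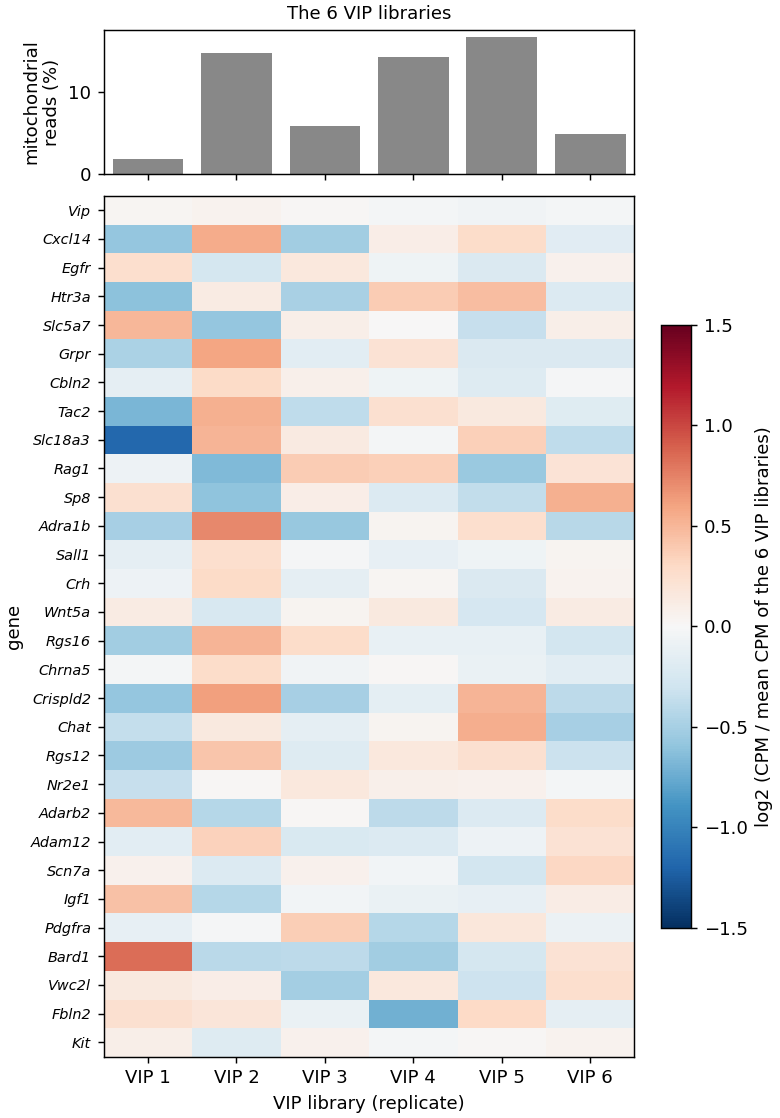
The upper bars give the percent of reads from mitochondrial genes in each VIP library, and the lower panel gives log2 of CPM over the mean of the 6 VIP libraries for the 30 named genes with the widest gap above (red higher, blue lower). Vip and Kit are nearly even across libraries, while Tac2, Cxcl14, Htr3a and Adra1b are higher in replicates 2 and 5 and lower in replicates 1 and 3.

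Some private genes lay side by side in the genome. Of pairs of private genes within 100 kb in RefSeq on GRCm38.p6, 61 were found, 57 of them private in the same direction, and in 29 the genes overlapped. They include Chat with Slc18a3, Chrna5 with Chrna3, Npy1r with Npy5r (receptors of neuropeptide Y), Dlx1 with Dlx2, Rgs8 with Rgs16, and Nefl with Nefm (neurofilament chains); these were chosen after their values were seen. Of the 373 genes above, 298 were protein-coding, 39 long noncoding, 4 of other types, and 32 had no symbol in RefSeq. Of the 183 below, 174 were protein-coding, 5 long noncoding and 4 without a symbol. Counts of such pairs and gene types over all genes tested are not given here, so these numbers stand without a background. Where genes overlap, their reads may not be fully separate, because the strand setting of the counts is not known.

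The same rule gave other numbers for the other groups. Each against its 18 others, EXC had 594 genes above and 238 below, PV 154 and 1089, and SST 244 and 12. VIP, with 373 and 183, thus had fewer than EXC alone above, and fewer than PV and EXC below. The groups differ in depth and in mitochondrial share, with PV the shallowest (1548907 to 4653119 reads) and SST the deepest (5508099 to 15978459), and the part of these differences in the counts was not tested.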

How the data were processed

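Per the file headers, the authors deposited a count of uniquely aligned reads per gene and an RPKM value adjusted by size factors; RPKM served only to rank genes within VIP. Per the submitters' processing notes, GSNAP aligned the reads to GRCm38. No source used here names the annotation, the counter or the strand setting. Of 36528 genes listed by NCBI Gene number, 31049 matched a RefSeq symbol (GRCm38.p6); the rest held 0.862% to 3.00% of the reads and were tested but not named. CPM is the raw count over the library total. Between 60 pairs of libraries of the same subtype, chi-square over its degrees of freedom was never under 5.10, so none was treated as a copy.

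After filterByExpr by subtype, TMM scaling and a fit to all 24 libraries with subtype and sex (edgeR 4.0.16, R 4.3.3), quasi-likelihood F tests were adjusted by Benjamini-Hochberg over 14890 genes and called under 0.05. Errors after ± are standard errors obtained from the change and its F statistic. Counting intervals are exact, at 95%, and cover counting error only; 1 CPM is 4.53 to 7.76 reads in VIP. The scripts were tested on simulated data.

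Named genes are the 30 with the widest gap above (lowest VIP library at 5 CPM or more) and the 15 below (lowest other library at 5 CPM or more), on CPM + 0.5 and without predicted genes. Added were genes at the edge of the rule, up to 4 private genes and 1 overlapping gene of each list, and 7 fixed genes. Npy1r, Npy5r, Rgs8, Nefl, Nefm, Nfib, Nfix, Rspo2, Rspo3, Tnr, Adamts1, Spon1, Col25a1, Mme and the markers of other cells fall outside that rule. The comparison, the genes and all 42 lists were chosen with earlier results of these data known. Alternatives were DESeq2 1.42.0, other scalings, filters and covariates, and single libraries left out. Values of 1 gene that the lists count are not reported here.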

Additional observations from a re-analysis of the deposited data

Results flagged for a closer look

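Among the named genes, 69 groups of 6 libraries were checked for a library apart from the others of its group by Dixon's criterion, of which chance marks about 1 in 20, and 6 were marked. VIP replicate 5 stood apart for 3 genes that are otherwise scarce in VIP: Sst at 18.3 CPM (other VIP libraries 0.129 to 4.50), Slc17a7 at 25.0 CPM (0.774 to 9.27) and Wipf3, private on the lower side, at 16.2 CPM (2.54 to 6.62). Chrna5 in VIP replicate 2 was at 45.0 CPM against 33.4 to 37.7 in the other VIP libraries, and it remained above all 18 others there. Rerg in VIP replicate 3 was at 1.40 CPM against 0.261 to 0.662, still below all 18 others. Outside VIP, Gad2 in SST replicate 3 was at 3984.5 CPM against 4968 to 5497 in the other SST libraries.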

How the results depend on the processing

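With pool as a covariate, calls against the mean of the other subtypes came to 1335 higher and 929 lower, against EXC to 1708 lower, and against PV to 1579 higher and 762 lower. With the 18 libraries fitted as 1 group, 2058 genes were called higher. A gap of at least 2-fold left 116 private genes above and 47 below, and leaving out EXC gave 1052 and 428. Within VIP, POOL7098 against POOL7099 gave 104 genes with DESeq2 and 323 with no filter. Leaving out each library in turn gave 2869 to 4165 genes higher and 2255 to 3520 lower against the mean, 2485 to 3676 and 2599 to 3624 against EXC, 3604 to 4329 and 2843 to 3576 against PV, 1876 to 2878 and 1674 to 2624 against SST, and 373 to 575 private genes above and 183 to 240 below. The highest of each range came without EXC replicate 3. Under the rule, leaving out a library can only keep or add private genes among the genes tested. The ranges of private genes therefore could not fall below 373 and 183. In all, 303 other values of these counts under the alternatives stayed within 1.5 times the reported value and 13 did not; the cause was not tested. Of 1632 values of 51 named genes, 1626 kept direction and call and 0 reversed; the 6 that lost the call were Slc18a3, Chat and Gad2 with pool as a covariate and Gad1, Gad2 and Prox1 with the 18 libraries as 1 group. For the lists, pool as a covariate moved 35 of 84 counts by more than 1.5 times, leaving out EXC replicate 3, VIP replicate 3 or VIP replicate 5 moved 4 each, and TMM scaling moved 8; these alternatives were chosen after seeing the data. No paired analysis was possible because the labels carry no replicate numbers. At the lowest VIP depth, 5 CPM equals 22.6 reads, so gaps at lower levels rest on few reads.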
